A study of Mus musculus with 11 samples.

Results

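The 10 genes described here act in nucleic acid sensing and type I interferon induction, and were compared between tumor-associated and splenic macrophages of mice carrying a lung tumor. They were the endosomal sensors Tlr3, Tlr7, Tlr8 and Tlr9, the cytosolic RNA sensors Ifih1 (MDA5) and Ddx58 (RIG-I), the adaptor Mavs, the kinase Tbk1, the transcription factor Irf3 and the interferon receptor subunit Ifnar1. They were chosen by name, and all 10 were found among the 35597 genes of the table that sets the tumor against the spleen.

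All animals were C57BL/6 mice of 6 to 8 weeks, and 500000 cells of the mouse lung tumor line LLC (Lewis lung carcinoma) had been injected under the skin 14 days before harvest. Every mouse in the comparison was Sin1fl/fl without a Cre transgene, so the floxed Sin1 gene was intact, and this genotype is called WT. WT_TAM denotes 4 libraries of macrophages sorted from the tumor as CD45+ Ly6G- Ly6C- CD11b+ F4/80+ cells. WT_SP denotes 3 libraries of macrophages sorted from the spleen of such tumor-bearing mice as CD45+ TCRβ- Ly6G- Ly6C- CD11blo F4/80+ cells. The remaining 4 of the 11 libraries, from LysMCre;Sin1fl/fl tumors, were not compared here, and their values served only to settle gene lengths. Whether each library came from its own mouse is not stated, so p-values reflect the spread among libraries, which may be technical.

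Inside endosomes, TLR3 binds double-stranded RNA and TLR9 responds to unmethylated DNA. TLR7 and, in humans, TLR8 respond there to single-stranded RNA and its breakdown products. What mouse TLR8 responds to was not examined here. RIG-I and MDA5 detect RNA in the cytosol and signal through MAVS on mitochondria. These routes, and that of TLR3, activate TBK1, which phosphorylates IRF3 so that it enters the nucleus and turns on type I interferon genes. Interferon then acts through the receptor of IFNAR1 and IFNAR2, and many genes of the pathway, Ddx58 and Ifih1 among them, are themselves known to be induced by interferon. The study included this comparison to ask whether an effect of Sin1 on type I interferon signalling is particular to tumor macrophages, and only mice with an intact Sin1 are in it.

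The sequence around the start of transcription is shown for Ddx58 and Ifih1 because Ddx58 was called lower in the tumor and the related sensor Ifih1 was not, and short windows are shown where an interferon-type motif was found. Sequences are RefSeq's, of build GRCm38.p6, 5′ to 3′ on the strand of the gene, and 9 of the 10 genes had one, all but Tlr7. Each window searched ran from 250 bases before to 50 bases after the annotated start. The letters GAAANNGAAA (the core of the interferon-stimulated response element) were searched on both strands. A further pattern with a single base between the repeats, GAAANGAAA, was added after the sequences had been seen. Capitals mark the matches.
Ddx58, 250 bases upstream, chr4:40239826-40240075, minus strand: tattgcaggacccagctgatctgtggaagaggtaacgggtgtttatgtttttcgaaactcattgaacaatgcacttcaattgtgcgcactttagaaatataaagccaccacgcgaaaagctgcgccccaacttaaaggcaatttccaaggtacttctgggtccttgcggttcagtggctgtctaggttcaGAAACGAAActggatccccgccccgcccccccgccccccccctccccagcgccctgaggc
Ifih1, 250 bases upstream, chr2:62646256-62646505, minus strand: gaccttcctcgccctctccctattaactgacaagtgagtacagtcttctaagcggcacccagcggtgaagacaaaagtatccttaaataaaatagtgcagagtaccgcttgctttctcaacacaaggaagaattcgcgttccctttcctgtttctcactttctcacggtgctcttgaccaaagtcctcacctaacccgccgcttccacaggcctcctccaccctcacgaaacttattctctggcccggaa
Ddx58, around the first base, chr4:40239805-40239832, minus strand: ctgaggcagTTTCGATTTCctatggcca
Ifih1, after the first base, chr2:62646206-62646233, minus strand: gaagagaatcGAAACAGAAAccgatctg
The response element core was present in 2 of the 9 windows, those of Ifih1 and Ddx58, and in 3.45% of 32544 windows of the same length over all genes. In Ifih1 it lay 33 to 42 bases into the transcript, and in Ddx58 it lay at bases 3 to 12 on the opposite strand. The single-base pattern was in the Ddx58 window alone of the 9, from 60 to 52 bases upstream, and in 3.19% of all windows. These are matches of letters and show no binding.

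The libraries held between 7639550 reads (WT_TAM replicate 4) and 13077647 reads (WT_TAM replicate 1). Levels are given as CPM, each gene's reads per 1000000 reads of its library, scaled by the authors' own library factors. WT_TAM replicate 4 stood apart from the other 3 tumor libraries. It gave 5.57% of its reads to Lars2, against 0.113% to 0.471% elsewhere, and relative to WT_TAM replicates 1 to 3 its genes shorter than 1000 bases had a median log2 difference of 0.66 and those of 3000 to 4000 bases one of -0.51. Mitochondrial genes took 6.58% and 5.79% of the reads in WT_TAM replicates 2 and 4 and 0.838% to 2.00% in the other libraries. The differences of the members and the counts of calls are therefore given with and without WT_TAM replicate 4.

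Both populations carried macrophage markers. The 12 macrophage markers summed to 38739 to 58672 CPM in WT_TAM and 5185 to 5512 CPM in WT_SP. By the test described below, 9 were higher in WT_TAM and 0 lower. In WT_SP this sum was below that of the B cell markers given below. Adgre1, which encodes F4/80, stood at 294.8 to 707 CPM in WT_TAM and 276 to 341 CPM in WT_SP, and Lyz2, the most abundant of the list, at 25249 to 35695 and 1630 to 2098 CPM. The spleen libraries also carried markers of red pulp macrophages (summed 3750 to 4206 CPM, against 354 to 744 CPM in WT_TAM, with Hmox1 the most abundant) and of lymphocytes. The 12 B cell markers summed to 15523 to 17006 CPM in WT_SP and 43.9 to 229 CPM in WT_TAM, and all 12 were lower in WT_TAM by the test described below. The 10 plasmacytoid dendritic cell markers summed to 1321 to 1533 CPM in WT_SP and 424 to 515 CPM in WT_TAM, with 7 lower and 3 higher in WT_TAM. The 9 type 1 dendritic cell markers summed to 1053 to 1105 CPM in WT_SP and 480 to 561 CPM in WT_TAM, and the 9 T cell markers to 1432 to 1501 and 85.7 to 132 CPM. For neutrophils, the 9 markers summed to 954 to 2465 CPM in WT_SP and 89.8 to 220 in WT_TAM, with 7 lower. Erythroid markers, 8 in number, summed to 946 to 4546 CPM in WT_SP and 157 to 664 in WT_TAM, with all lower. The 6 plasma cell markers summed to 2211 to 3652 CPM in WT_SP and 353 to 618 in WT_TAM, with 3 lower and 2 higher. NK cell and endothelial cell sums were also higher in WT_SP. Other lists were higher in the tumor. The 11 fibroblast and tumor cell markers summed to 702 to 1396 CPM in WT_TAM and 20.0 to 67.4 CPM in WT_SP, with 8 higher, 1 lower and Col3a1 the most abundant. The 6 type 2 dendritic cell markers summed to 469 to 751 CPM in WT_TAM and 268 to 295 CPM in WT_SP, with 2 higher, 3 lower and Mgl2 the most abundant. The part of any of these cells in the differences below was not tested. The stated gate of the spleen sort names no B cell marker. No list had a marker at 0 in all libraries of a group, although single B cell markers, such as Pax5 and Blk, were at 0 in WT_TAM replicate 4. Bulk RNA cannot tell fewer cells of a type from less RNA per cell.

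**Figure D1:**
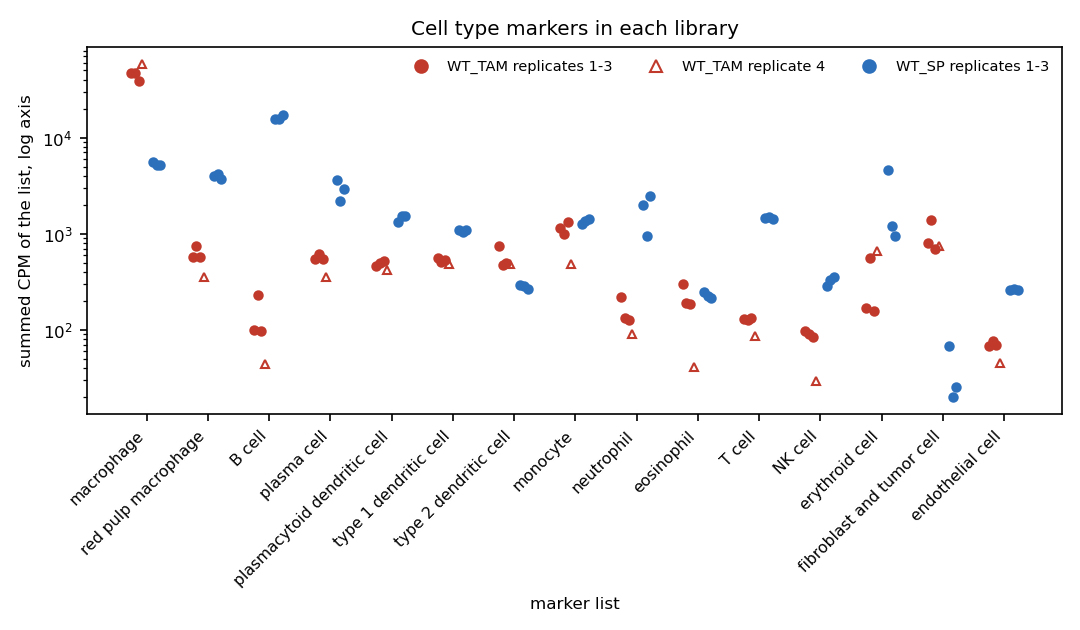
Summed CPM of 15 cell type marker lists (log axis) in each library, with WT_TAM in red and WT_SP in blue and replicate 4 of WT_TAM as an open triangle. The B cell sums lie between 15523 and 17006 CPM in WT_SP and between 43.9 and 229 CPM in WT_TAM.

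By limma with Benjamini-Hochberg adjustment over all 14301 genes tested, Tlr8 was higher in tumor macrophages and Tlr9, Ddx58, Mavs and Irf3 were lower. Differences are WT_TAM minus WT_SP in log2(CPM + 0.5), a scale that understates changes of low genes, and a gene was called at an adjusted p under 0.05. Thus 1 of the 10 members was called higher and 4 were called lower, and 5 (Tlr3, Tlr7, Ifih1, Tbk1 and Ifnar1) did not pass. Over all genes tested, 22.6% were called higher and 24.1% lower, 46.7% in either direction. Of all calls, 48.4% were thus higher, against 27.5% when library totals were the only scaling, which moved the median of all genes by -0.44. The members' median difference was -0.31 against -0.08 for all genes. Without WT_TAM replicate 4 the members' median was -0.02, and 3 were called higher (Tlr8, Ifnar1 and Ifih1) and the same 4 lower, where 31.7% of all 14040 genes tested were called higher and 33.9% lower.

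**Figure D2:**
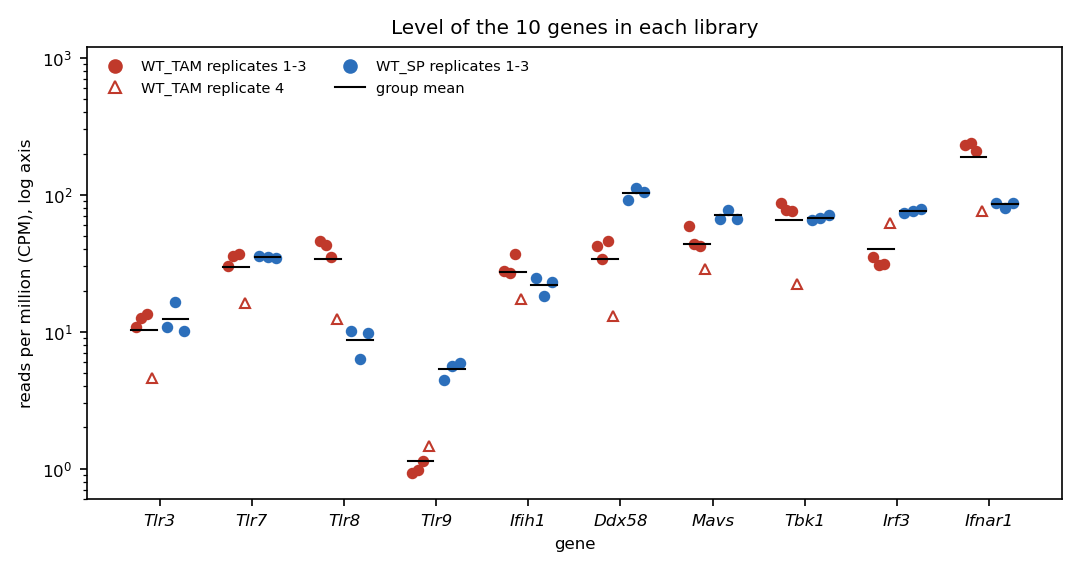
CPM of the 10 genes (log axis) in each library, with WT_TAM in red, WT_SP in blue, WT_TAM replicate 4 as an open triangle and a black line at each group mean. WT_TAM replicate 4 is below the other 3 tumor libraries for 8 genes and above them for Tlr9 and Irf3.

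Among the endosomal sensors, Tlr8 was the one called higher. In order of replicate number, the tumor libraries held 45.7, 42.9, 35.1 and 12.3 CPM and the spleen libraries 10.1, 6.33 and 9.75 CPM. All tumor libraries lay above all spleen libraries, and replicate 4 only just so. The difference was 1.77 ± 0.44 (SE; adjusted p = 0.0106 by limma), or 3.41-fold, and 2.19 ± 0.19 without WT_TAM replicate 4 (adjusted p = 3.23e-06 by limma). The call was lost on values per gene length (1.27, adjusted p = 0.0730 by limma) and without WT_SP replicate 2 (1.57, adjusted p = 0.051 by limma).

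Tlr7, the neighbor of Tlr8 on chromosome X (build GRCm38, bases 167304929 to 167330558 against 167242696 to 167264329, both on the minus strand), was not called. It stood at 30.1, 35.6, 37.2 and 16.2 CPM in WT_TAM and at 35.8, 35.4 and 34.3 CPM in WT_SP. WT_TAM replicate 4 was the low library, and the other 3 spanned the spleen values. The difference was -0.30 with a 95% interval from -0.96 to 0.35 (adjusted p = 0.422 by limma), and -0.04 without WT_TAM replicate 4. The 2 genes can be set against each other inside a library, on reads per length, in a ratio chosen after the values had been seen. Tlr8 was 1.70, 1.35, 1.06 and 0.850 times Tlr7 in the tumor libraries and 0.318, 0.201 and 0.319 times in the spleen libraries. These ratios do not overlap between the groups, and replicate 4 keeps its place on the tumor side. They are a description, with no test. Another such ratio, Ifnar1 over Ifnar2, was 1.36, 1.42, 1.29 and 0.606 in WT_TAM and 0.897, 0.791 and 0.852 in WT_SP. There replicate 4 fell below all spleen libraries. Tlr9 over Tlr7 was 0.0333, 0.0298, 0.0330 and 0.0982 in WT_TAM and 0.134, 0.172 and 0.185 in WT_SP, without overlap. Tlr7 is also known in B cells and plasmacytoid dendritic cells. All 12 B cell markers were higher in WT_SP, and of the 10 plasmacytoid markers 7 were higher in WT_SP and 3 in WT_TAM. Their part in the level of Tlr7 was not tested.

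Tlr9 was lower in tumor macrophages, at 0.929, 0.980, 1.14 and 1.48 CPM against 4.44, 5.64 and 5.87 CPM in WT_SP. These levels rest on 11, 10, 13 and 9 reads in WT_TAM and on 63, 73 and 80 reads in WT_SP. The groups were clear of each other, and here WT_TAM replicate 4 was the highest tumor library. The difference was -1.84 ± 0.25 (adjusted p = 0.000393 by limma), and -1.93 without WT_TAM replicate 4. Tlr9 is known to be expressed by B cells and plasmacytoid dendritic cells. Ighm, the most abundant B cell marker, stood at 16.1 to 105 CPM in WT_TAM and 6312 to 7287 CPM in WT_SP, and all 12 B cell markers were lower in WT_TAM. Of the 10 plasmacytoid markers 7 were lower and 3 (Bst2, Runx2 and Lair1) higher in WT_TAM, and the most abundant was Ly6d, which B cells also express. Their part in the Tlr9 result was not tested.

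Tlr3 showed no call. It stood at 10.8, 12.5, 13.6 and 4.59 CPM in WT_TAM and at 10.9, 16.4 and 10.1 CPM in WT_SP, and the groups overlapped. The difference was -0.32 with a 95% interval from -1.18 to 0.54 (adjusted p = 0.518 by limma), and 0.01 without WT_TAM replicate 4, with an interval from -0.45 to 0.47. Tlr3 shares 381 exonic bases with the antisense gene Gm45542 in GENCODE M21, and since no source used here gives the strand setting of the counting, its reads could include those of that gene.

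Of the 2 cytosolic RNA sensors, Ddx58 was called lower in tumor macrophages. It stood at 42.2, 34.1, 46.0 and 13.1 CPM in WT_TAM and at 91.1, 112 and 105 CPM in WT_SP. Every tumor library was below every spleen library, with or without replicate 4. The difference was -1.73 ± 0.40 (adjusted p = 0.00736 by limma), a level 3.31-fold higher in spleen, and -1.33 ± 0.13 without WT_TAM replicate 4 (adjusted p = 7.06e-06 by limma). The Ddx58 call held under all 19 alternatives run.

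Ifih1, which detects long double-stranded RNA, was not called. It stood at 27.9, 26.9, 36.8 and 17.4 CPM in WT_TAM and at 24.9, 18.2 and 23.1 CPM in WT_SP. Replicate 4 was below all spleen libraries and the other 3 tumor libraries were above them. The difference was 0.26 with a 95% interval from -0.34 to 0.87 (adjusted p = 0.450 by limma), and it was called without WT_TAM replicate 4 (0.46 ± 0.17, adjusted p = 0.0319 by limma). With library totals as the only scaling its sign turned, to -0.20. Within a library, reads per length of Ddx58 were 1.72, 1.44, 1.42 and 0.858 times those of Ifih1 in WT_TAM and 4.16, 6.99 and 5.18 times in WT_SP, a ratio that was also chosen after the values had been seen. The tumor and spleen ratios did not overlap, and the difference between the 2 genes was not tested. Both genes hold the response element core shown above, Ddx58 within its first bases and Ifih1 further into the transcript.

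Mavs, the adaptor that both RNA sensors use, was lower in tumor macrophages. It stood at 59.1, 43.9, 42.3 and 28.5 CPM in WT_TAM and at 67.1, 78.0 and 66.9 CPM in WT_SP. The groups did not overlap, although WT_TAM replicate 1 came near the lowest spleen library. The difference was -0.74 ± 0.25 (adjusted p = 0.0364 by limma), and -0.55 ± 0.14 without WT_TAM replicate 4 (adjusted p = 0.00484 by limma). The call was lost without WT_TAM replicate 2 or 3, without any of the 3 WT_SP libraries and without the filter on low reads, with adjusted p between 0.0664 and 0.131 by limma and differences between -0.77 and -0.66.

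Tbk1, the kinase that acts downstream of MAVS and of TRIF, the adaptor of TLR3, was not called. It stood at 87.7, 77.3, 75.7 and 22.1 CPM in WT_TAM and at 65.3, 67.3 and 71.5 CPM in WT_SP. Tumor replicates 1 to 3 were all above the spleen libraries, and replicate 4 was far below all of them. The difference was -0.22 with a 95% interval from -1.23 to 0.78 (adjusted p = 0.708 by limma). Without WT_TAM replicate 4 it was 0.23, with an interval from 0.02 to 0.45, and it still did not pass (adjusted p = 0.0572 by limma).

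Irf3, the factor that TBK1 phosphorylates, was lower in tumor macrophages. It stood at 35.0, 30.6, 31.3 and 62.6 CPM in WT_TAM and at 74.1, 75.9 and 78.4 CPM in WT_SP. All tumor libraries were below all spleen libraries, and replicate 4 was the one nearest to them. The difference was -0.99 ± 0.26 (adjusted p = 0.0139 by limma), or 1.99-fold higher in spleen, and -1.23 ± 0.10 without WT_TAM replicate 4 (adjusted p = 2.04e-06 by limma). It missed the threshold without WT_SP replicate 2 (adjusted p = 0.0511 by limma) or replicate 3 (adjusted p = 0.0561 by limma), with differences of -0.99 and -0.97. Irf3 shares 88 exonic bases with Bcl2l12 on the other strand, so with an unknown strand setting some of its reads could be those of that gene.

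Ifnar1, which encodes a subunit of the type I interferon receptor, was not called with all libraries. It stood at 231.5, 239, 207 and 76.1 CPM in WT_TAM and at 87.8, 80.2 and 87.3 CPM in WT_SP. Tumor replicates 1 to 3 were above every spleen library, whereas replicate 4 was below all 3. The difference was 1.01 ± 0.38 and did not pass (adjusted p = 0.0580 by limma). Without WT_TAM replicate 4 it was 1.40 ± 0.09 and was called (adjusted p = 2.96e-07 by limma), and it was also called without the filter on low reads (adjusted p = 0.0473 by limma) and under upper quartile scaling (adjusted p = 0.0292 by limma). In all, 5 of the 19 alternatives called Ifnar1. With library totals alone it differed by 0.54 (adjusted p = 0.299 by limma), and on values per length by 0.53 (adjusted p = 0.380 by limma). On the deposited values it differed by 0.71 (adjusted p = 0.197 by limma). Leaving out any library other than WT_TAM replicate 4 gave an adjusted p from 0.128 to 0.152 by limma. Ifnar2, the partner subunit, was called higher with all libraries, at 0.62 ± 0.17 (adjusted p = 0.0161 by limma), from 123 ± 16.4 (SD, n = 4) against 79.0 ± 1.89 CPM (SD, n = 3), and without WT_TAM replicate 4 it differed by 0.72. The Ifnar2 call was lost under 7 of the 19 alternatives, among them leaving out any of the 3 WT_SP libraries and scaling by library totals alone, with differences down to 0.14 and adjusted p up to 0.663 by limma.

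**Figure D3:**
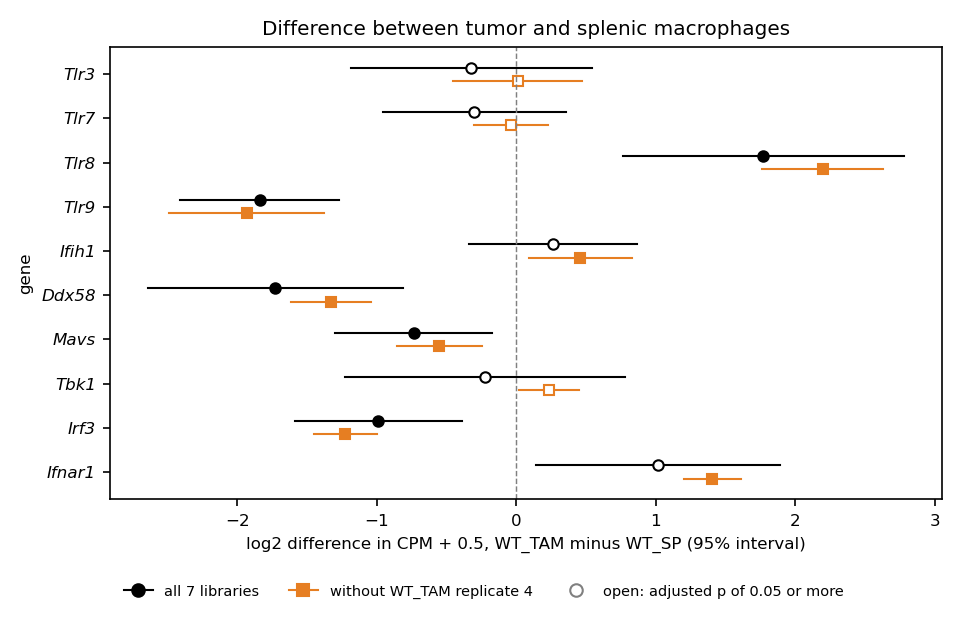
Difference in log2(CPM + 0.5), WT_TAM minus WT_SP, with 95% intervals from limma, over all 7 libraries (black circles) and without WT_TAM replicate 4 (orange squares), where filled symbols have an adjusted p under 0.05. Tlr8 lies to the right of 0 and Tlr9, Ddx58, Mavs and Irf3 to the left in both fits, while Ifnar1 and Ifih1 are filled only in the fit without replicate 4.

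The groups did not overlap for 1 member that was higher in WT_TAM (Tlr8) and 4 that were lower (Tlr9, Ddx58, Mavs and Irf3). Over all genes tested, 25.8% did not overlap and were higher, and 30.4% did not overlap and were lower, 56.1% together. Without WT_TAM replicate 4 the members' counts were 4 and 4, where 33.7% of the 14040 genes tested did not overlap and were higher and 37% did not overlap and were lower. That library was below each of WT_TAM replicates 1 to 3 for 8 members, all of 2966.5 bases or more, and at 194% of their mean for Irf3, the shortest member at 1557 bases. Tlr9, at 3342 bases and with 9 reads there, was at 145% of their mean. In that library the median log2 difference was -0.03 for genes of 1000 to 2000 bases, the class of Irf3. It was -0.51 for those of 3000 to 4000 bases, the class of Tlr9, so both members stood above their class. The part of gene length or RNA quality in the differences was not tested.

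**Figure D4:**
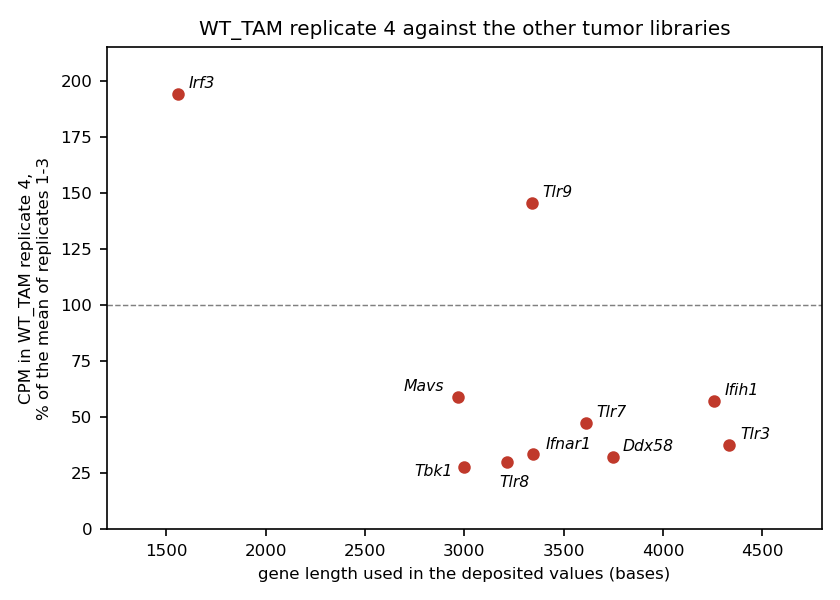
CPM in WT_TAM replicate 4 as a percentage of the mean of WT_TAM replicates 1 to 3, against the gene length in bases, for the 10 genes, with a dashed line at 100%. Irf3 (194%) and Tlr9 (145%) lie above the line and the other 8 genes between 27.6% and 58.9%.

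Levels of different genes were compared on reads per length, scaled to sum to 1000000 in each library (a TPM-like value, mean ± SD). In spleen, Irf3 led at 84.3 ± 2.75 (SD, n = 3), apart from all others. Ddx58 (47.3 ± 5.34), Ifnar1 (43.9 ± 1.81), Mavs (41.1 ± 4.05) and Tbk1 (39.1 ± 1.92) followed, and neighbors in this order overlapped. Tlr7 (16.8 ± 0.366) and Ifih1 (8.93 ± 1.32) came next, each apart from its neighbors. Tlr3 (4.96 ± 1.41) and Tlr8 (4.68 ± 1.09) overlapped, and Tlr9 was lowest at 2.74 ± 0.412.

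In the tumor the order was different. Ifnar1 led at 73.3 ± 34.2 (SD, n = 4), followed by Irf3 (30.7 ± 6.21), Tbk1 (28.7 ± 14.7), Mavs (18.8 ± 7.34), Tlr8 (13.8 ± 6.90), Ddx58 (11.9 ± 6.20), Tlr7 (10.7 ± 4.42), Ifih1 (8.25 ± 3.43) and Tlr3 (3.11 ± 1.46). All neighbors in that run overlapped, and Tlr9, at 0.414 ± 0.0546, was below all of them. In WT_TAM replicates 1 to 3 alone, Ifnar1 (90.3 ± 3.48), Tbk1 (35.9 ± 3.96) and Irf3 (27.9 ± 3.25) did not overlap with each other. By these means Tlr8 was next to last in spleen and had the fifth place in the tumor, while Ddx58 went from the second place to the sixth. Single libraries did not all keep this order. Tlr3 was above Tlr8 in only 1 of the 3 spleen libraries, and Ddx58 was above Tlr7 in 2 of the 4 tumor libraries.

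Around the 10 members, 105 genes of the same pathway were listed by role, 98 were in the table and 85 were tested. Of these, 18 were higher in WT_TAM and 15 lower, with a median difference of -0.02, and 30 were higher and 23 lower without WT_TAM replicate 4. These counts stand beside 22.6% and 24.1% of all genes with all libraries and 31.7% and 33.9% without replicate 4. The 28 called pathway genes named below were all called in the same direction without that library, and the values without it are given for some of them.

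In endosomal sensing, 6 of 20 genes were higher and 2 lower (10 and 3 without WT_TAM replicate 4). Cd14, a co-receptor of several Toll-like receptors and also a macrophage marker, stood at 2759 ± 366 CPM in WT_TAM and 41.3 ± 12.6 CPM in WT_SP (log2 difference 6.08). Slc15a3, an endolysosomal peptide transporter, differed by 3.23, and Lgmn, a protease that processes endosomal Toll-like receptors, by 2.07. Tlr13, the mouse sensor of bacterial ribosomal RNA, was higher like Tlr8, at 130 ± 56.7 against 30.3 ± 3.38 CPM (1.93 ± 0.43, adjusted p = 0.00574 by limma, and 2.37 without WT_TAM replicate 4). Slc15a4 (-0.78) and 5430427O19Rik, which encodes its partner TASL (-1.19), were lower, and they form a complex that links endosomal receptors to IRF5. They differed by -0.59 and -0.82 without WT_TAM replicate 4, and both calls were lost when any of the 3 WT_SP libraries was left out (adjusted p up to 0.0835 and 0.0847 by limma). Unc93b1, the chaperone that carries the nucleic acid receptors to endosomes (-0.13), and the adaptors Myd88 (0.47) and Ticam1 (-0.10) were not called, and Myd88 was called without WT_TAM replicate 4 (0.70).

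In cytosolic RNA sensing, 3 of 14 genes were higher and 3 lower, and the counts were the same without WT_TAM replicate 4. Nlrx1, a mitochondrial protein reported to restrain MAVS, differed by 1.46, Prkra (PACT) by 0.73 and Trim25, a ubiquitin ligase of the RIG-I pathway, by 0.57. Adar, which edits double-stranded RNA, differed by -1.43 and the helicase gene Dhx9 by -1.07 (-1.03 and -1.04 without WT_TAM replicate 4). Some of these calls depended on the setting. That of Trim25 was lost under 10 of the 19 alternatives, with differences down to 0.09 and adjusted p up to 0.821 by limma. That of Prkra was lost under 6, with differences down to 0.12 and adjusted p up to 0.805 by limma. That of Adar was lost when any of the 3 WT_SP libraries was left out (adjusted p up to 0.0538 by limma). Dhx58, which encodes LGP2, another RIG-I-like receptor, was not called and stood at 47.6 ± 14.9 (SD, n = 4) and 47.4 ± 4.67 CPM (SD, n = 3), a difference of -0.06 ± 0.29.

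In cytosolic DNA sensing, 4 of 15 genes tested were higher and 3 lower (5 and 5 without WT_TAM replicate 4). Mb21d1, which encodes cGAS, was higher at 9.92 ± 2.62 against 3.54 ± 0.626 CPM (1.34 ± 0.27, adjusted p = 0.00341 by limma). The difference was 1.47 without WT_TAM replicate 4, and it was not called on values per length or on the deposited values (adjusted p up to 0.128 by limma). Tmem173, which encodes its partner STING, stood at 168 ± 27.3 and 165 ± 9.91 CPM and was not called. In the Ifi200 family, Ifi204 (1.68) and Ifi205 (1.38) were higher and Ifi203 (-1.71) and Mndal (-1.26) lower. They are close copies of each other, so how reads were shared among them is uncertain. The Ifi205 call was lost under 6 of the 19 alternatives (differences down to 0.77, adjusted p up to 0.206 by limma). Pqbp1, a cofactor of cGAS, was also lower (-0.90).

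Of the kinase complexes and adaptors, 1 of 15 was higher and 2 lower (4 and 7 without WT_TAM replicate 4). Tnfaip3 (A20, an inhibitor of inflammatory signalling) differed by 1.66, Optn (optineurin, which binds TBK1) by -0.88 and Traf2 by -0.85. These were 2.26, -0.73 and -0.74 without WT_TAM replicate 4. The Tnfaip3 call was lost under 10 of the 19 alternatives (differences down to 1.18, adjusted p up to 0.181 by limma) and the Optn call without WT_SP replicate 1 or 3 (adjusted p up to 0.0601 by limma). Ikbke, the kinase related to Tbk1 (0.38), and Traf3, the ubiquitin ligase that links MAVS to TBK1 (-0.39), were not called, and Ikbke was called without WT_TAM replicate 4 (0.64).

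Of 7 interferon regulatory factors other than Irf3, 4 were lower and 3 were not called (4 lower and 2 higher without WT_TAM replicate 4). Irf4 stood at 5.54 ± 2.16 CPM in WT_TAM and 53.8 ± 8.6 CPM in WT_SP (-3.25), Irf9, a part of the complex that acts after the interferon receptor, stood at 66.6 ± 16.6 and 130 ± 7.25 CPM, and Irf8 differed by -0.54. The Irf8 call was lost under 4 of the 19 alternatives (adjusted p up to 0.0871 by limma). Irf2, which was not among the genes to be named and was added for completeness after its value was seen, differed by -0.60. Irf4 and Irf8 are also expressed by B cells and dendritic cells. All 12 B cell markers, 7 of 9 type 1 dendritic cell markers, a list that holds Irf8 itself, and 7 of 10 plasmacytoid markers were lower in WT_TAM, whereas the summed type 2 dendritic cell markers were higher there, as given above. The summed plasma cell markers were lower in WT_TAM, with 3 of 6 called lower and 2 higher. The part of any of these cells in the Irf4 and Irf8 results was not tested. Irf5 (0.43) and Irf7 (0.09) were not called, and Irf5 was called without WT_TAM replicate 4 (0.66).

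Of 13 interferon receptor and signalling genes, 4 were higher and 1 lower (6 and 1 without WT_TAM replicate 4). Beside Ifnar2, the feedback inhibitors Socs3 (3.64) and Socs1 (1.80) and the interferon gamma receptor subunit Ifngr2 (1.07) were higher, and Jak1, a kinase bound to both receptors, was lower (-1.30). These were 3.91, 1.70, 1.13 and -1.01 without WT_TAM replicate 4. The Ifngr2 call was lost on values per length and on the deposited values (adjusted p up to 0.171 by limma).

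Of 20 interferon genes listed, 14 were in the table. Ifnb1, the interferon gene that IRF3 is best known for, had 0, 17, 0 and 7 reads in WT_TAM and 0, 2 and 1 reads in WT_SP, too few to be tested. The 12 type I and type III genes beside it had at most 4 recovered reads in any library. Ifng alone passed the filter on low reads, and it was not called. For the others the depth allowed no comparison.

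**Figure D5:**
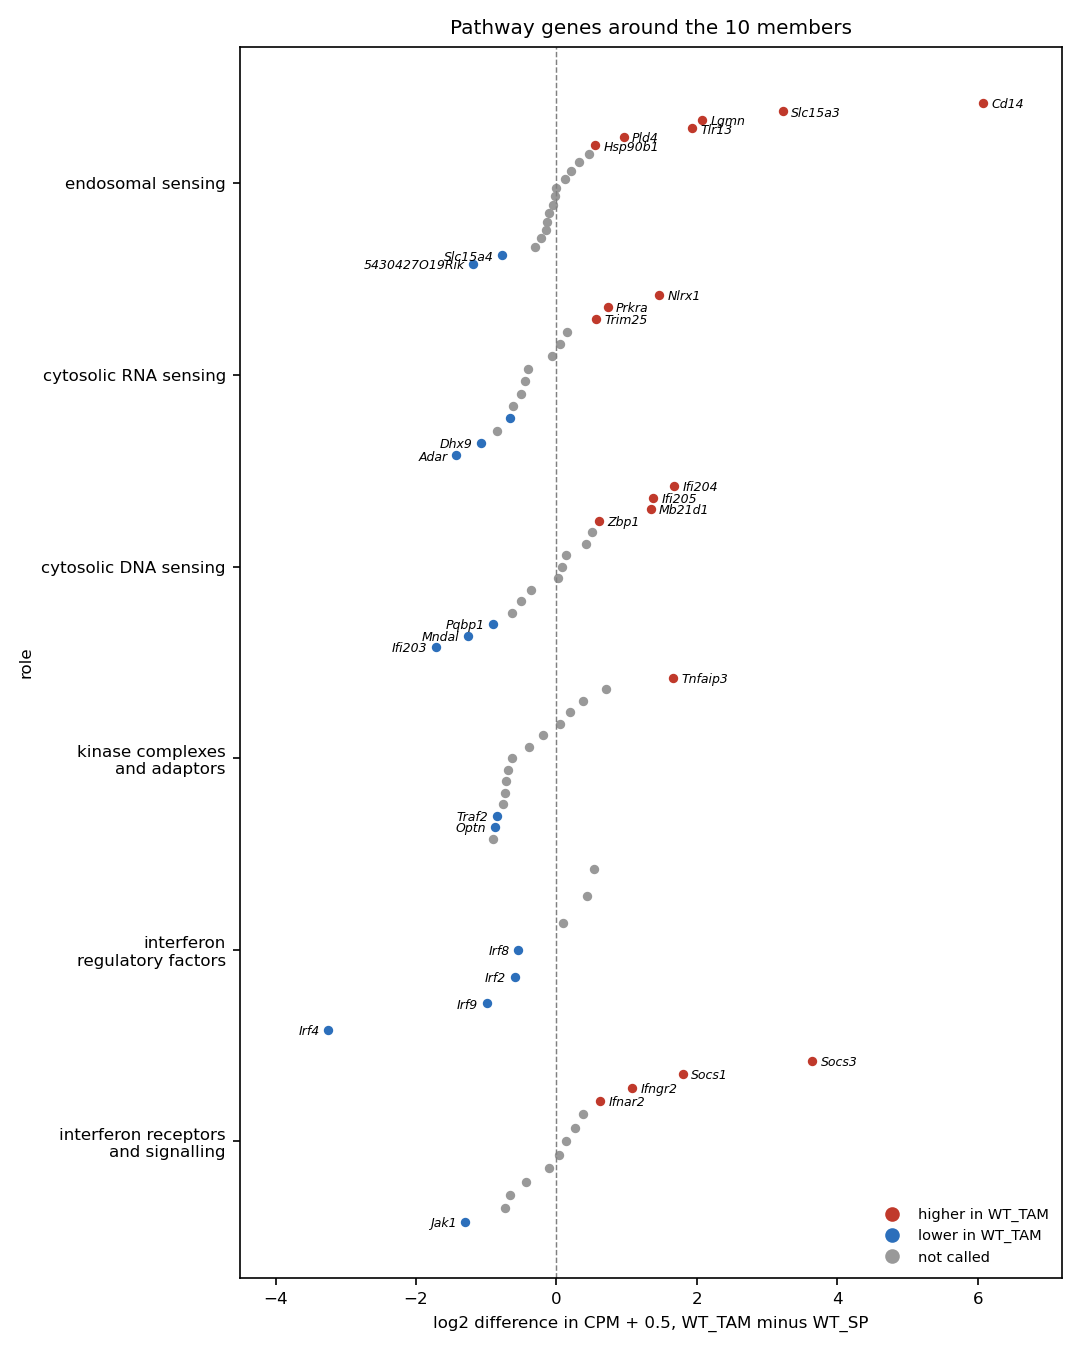
Difference in log2(CPM + 0.5), WT_TAM minus WT_SP, for the tested pathway genes in 6 roles, 1 point per gene, with called genes in red (higher) or blue (lower), most of them named, and the others in grey. Red and blue points occur together in every role except the interferon regulatory factors, where 4 of 7 are blue and the others grey.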

How the data were processed

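RNA was extracted with Trizol from sorted cells, per the labels' protocols. The submitters' processing notes name mm10, TopHat2, HISAT2, HISAT, SAMtools, HTSeq and DESeq2, without roles. The authors deposited a score per gene and library for 35597 genes. From the values, the authors had made each score by dividing reads by gene length (-1 for 12492 genes without one), library total and library factor, then multiplying by a factor recycled down the rows. Undoing these steps recovered whole reads, within 0.0002 reads, for all genes, 99.9% to 100.0% of each total, with lengths of 22181 genes settled jointly from both tables. For genes with a length, the smallest length that gave whole reads was taken, so wholeness is no check there. Where the reads of a gene share a divisor, as can happen with few reads, they would be understated. The factors matched a median of ratios to 8.18e-11 (natural log). All per-sample columns were used, so 0 were left out.

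CPM are reads per 1000000 of total times factor. Log2(CPM + 0.5) was fitted with limma 3.58.1 (R 4.3.3; trend, robust, two-sided, Benjamini-Hochberg, threshold 0.05). This limma fit was the planned test. A test by edgeR was to replace it only if the deposited values were plain counts, which they are not. Genes were tested that reached, in at least 3 libraries, the CPM equal to 10 reads in the median library, with 15 reads in all. The fit was tested on simulated data. Groups came from the sample titles. Members and lists were chosen with earlier results of these data known. Named were all members, 15 pathway genes whatever their values, up to 3 called genes per role and direction, and the most abundant markers, some of which are not reported here. Alternatives were other pseudocounts, filters, scalings, weights, voom, a replicate block and leaving out each library.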

Additional observations from a re-analysis of the deposited data

Results flagged for a closer look

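In 3 of the genes described, WT_TAM replicate 4 lay far from the other 3 tumor libraries by Dixon's test, which chance alone would flag in about 1 of 20 groups. Irf3 stood at 62.63 CPM there, against 35.0 CPM in the nearest tumor library. Slc15a3 stood at 318.4 CPM there, against 134 CPM in the nearest. Traf3 stood at 17.21 CPM there, against 34.1 CPM in the nearest. Without this library the difference of Irf3 was -1.23, that of Slc15a3 was 2.85 and that of Traf3 was -0.13, and the first 2 remained called and the third not called by limma.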

How the results depend on the processing

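Of the 5 calls among the members, those of Tlr9 and Ddx58 held under all 19 alternatives, Tlr8 and Irf3 under 17 and Mavs under 13. The 19 are not independent. Scaling by a median of ratios computed from the reads repeats the reported fit, since its factors are the same. The replicate block gives the same differences as leaving out WT_TAM replicate 4. With library totals alone 2135 genes were called higher and 5629 lower, 27.5% of calls higher against 48.4% as reported, the median of all genes moved by -0.44, and 10 pathway genes were higher and 30 lower. On values per length 1888 genes were higher (29.5% of calls, median moved by -0.40), with 0 members and 8 pathway genes higher, and on the deposited values as they stand 1729 (31.5%, moved by -0.39) and 8 pathway genes. Members called higher numbered 2 without the filter on low reads, 2 under upper quartile scaling and 3 with array weights, where 29 pathway genes were higher and 25 lower. Over all genes, 2972 of 35597 were called higher without the filter and 3270 of 14301 under upper quartile scaling. With array weights 4604 of 14301 were higher and 4964 lower. Replicate numbers are shared by the groups, and the deviations of equally numbered libraries correlated at -0.03, -0.11 and 0.15. Those of unequally numbered libraries correlated from -0.16 to 0.18. Such weak correlations cannot decide whether equal numbers mean the same mouse, which is not stated, so the main fit treats the libraries as unpaired. A fit with the replicate number as a block over replicates 1 to 3 gave 3 members higher and 30 pathway genes higher and 23 lower. Of all 14040 genes tested in that fit, 4397 were higher and 4685 lower. Leaving out 1 library at a time gave 0 to 3 members higher, 2 to 4 lower, 11 to 30 pathway genes higher and 8 to 23 lower. Over all genes these fits called 2490 to 4452 higher and 2555 to 4761 lower, of 13966 to 14858 tested. Some genes that were not called changed sign. With totals alone Ifih1 was -0.20, Myd88 -0.0046, Tmem173 -0.46, Ikbke -0.089, Irf5 -0.042 and Irf7 -0.38. Per length they were -0.19, -0.0095, -0.46, -0.091, -0.048 and -0.39, and on deposited values Ifih1 was -0.017, Tmem173 -0.35 and Irf7 -0.41. With array weights Tlr3 was 0.022, Tbk1 0.18 and Dhx58 0.16, and with the block 0.0091, 0.23 and 0.21. Leaving out 1 library at a time gave -0.48 to 0.0091 for Tlr3, -0.42 to 0.23 for Tbk1, -0.17 to 0.21 for Dhx58, -0.069 to 0.10 for Tmem173 and -0.061 to 0.31 for Irf7. Why these values moved was not tested. Low depth limits Tlr9 in WT_TAM and the interferon genes.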

Other observations

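The WT_TAM libraries are also in the authors' table of the genotype comparison, where the value of each member can be computed from the reads found here. For Tlr3, Tlr7, Tlr8, Tlr9, Ifih1, Ddx58 and Mavs the deposited value was equal to the computed one, within 0.01 reads, in all 4 libraries. For Tbk1 it was lower by 20, 15, 14 and 0 units in replicates 1 to 4, where the computed values were 26.5, 23.4, 22.3 and 7.49. For Irf3 it was lower by 10, 10, 10 and 30 units, from 19.2, 14.4, 17.0 and 40.9. For Ifnar1 it was lower by 10 and 20 units in replicates 1 and 2, from 64.6 and 60.8, and equal in replicates 3 and 4. Apart from this comparison, that table was used only to settle gene lengths.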
